A study of Mus musculus with 4 samples.

Results

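The genes described here are 9 genes linked to regulatory T cells (Tregs): *Foxp3*, *Ikzf2*, *Il10*, *Lrrc32*, *Itgb8*, *Izumo1r*, *Gpr83*, *Capg* and *Tgfb1*. They were chosen by name, and each was found under the same gene ID and symbol in both gene expression libraries, among 31950 gene IDs listed in both. The study profiled lamina propria cells of the small intestine, depleted of other cells to leave T cells and innate lymphoid cells (ILCs), from 12-week-old WT mice and from mice homozygous for A20ZF7. A20ZF7 is a knock-in point mutation in zinc finger 7 of A20 (encoded by *Tnfaip3*), the motif that binds M1-linked (linear) ubiquitin, so all cells of these mice carry it, and the level of *Tnfaip3* mRNA does not check the genotype label. Cells of 2 mice a genotype were hashtagged and pooled, 60000 cells were collected for each genotype, and 1 gene expression library was made of each pool.

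Tregs are CD4 T cells that restrain other immune cells, and in the gut lamina propria they hold back responses to microbes and food. The transcription factor FOXP3 defines them, often with Helios, the product of *Ikzf2*. They act in part through soluble mediators: IL-10 acts on myeloid cells and T cells, and TGF-β is made as a latent complex, which GARP (from *Lrrc32*) can hold at the cell surface and which the integrin αvβ8, whose β chain is encoded by *Itgb8*, can activate.

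Each cell is a droplet barcode, and a level is given as unique molecular identifiers (UMIs) of a gene per 1000000 UMIs of a class (CPM). T barcodes had 2 or more UMIs over 6 T cell receptor and CD3 genes and at most 1 UMI of 26 non-lymphoid genes. Those with a *Foxp3* UMI were called Foxp3-positive, and the rest other T. A Treg whose *Foxp3* mRNA was not captured is thus counted as other T. Innate lymphoid barcodes had none of these T cell genes and 2 or more UMIs over 11 innate lymphoid genes. The WT library gave 70 Foxp3-positive, 3790 other T and 1230 innate lymphoid barcodes among 19667 kept, and the A20ZF7 library gave 684, 10382 and 754 among 36896. Median depth was 922.5 and 1168 UMIs in Foxp3-positive barcodes of WT and A20ZF7, and 736.5 to 935 UMIs in the other classes. The 2 libraries shared 1024 kept barcode sequences, none of them Foxp3-positive in both. Because each genotype is 1 library, a difference between genotypes has no replicate check, no test was made, and the 95% interval after a value in parentheses covers counting error only. The libraries were also counted against different gene lists, so an effect of genotype cannot be told apart from one of the counting. Fewer cells with a transcript and fewer transcripts per cell cannot be told apart in summed counts.

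Foxp3-positive barcodes were checked against Treg genes that the gate did not use. *Ctla4*, an inhibitory receptor of Tregs and activated T cells, had 1523 CPM in them against 425 CPM in other T barcodes of WT, but 1054 against 945 CPM in A20ZF7. *Tnfrsf18* (GITR), a costimulatory receptor, had 266 against 96.4 CPM in WT and 188 against 97.5 CPM in A20ZF7, and *Il2ra*, the IL-2 receptor α chain, 152 against 97.9 and 147 against 110 CPM. All 3 were higher in Foxp3-positive barcodes, but *Ctla4* by little in A20ZF7. The WT ratio of *Il2ra*, 1.56 (0.796 to 2.75), held 1 in its interval. These 3 were picked from 9 receptors after their values were seen, and 2 others of the 9 were 2-fold higher in both libraries. *Il2rb*, the IL-2 receptor β chain, was not higher in WT, at 0.730 (0.416 to 1.19). *Cd4* was low, with 15 UMIs (190 CPM) in WT and 160 UMIs (171 CPM) in A20ZF7, against 102 and 165 CPM in other T barcodes. The T cell receptor, CD3, stromal and B cell genes were part of the gate and check nothing. The antibody genes *Igha*, *Igkc* and *Jchain*, which T cells do not use, were taken as a sign of RNA free in the droplets. Together they held 1371 CPM of WT and 7931 CPM of A20ZF7 Foxp3-positive barcodes, and 5931 and 9797 CPM of other T barcodes. In WT they held 1275 CPM of ILC2-like and 6550 CPM of ILC3, ILC1 or NK-like barcodes. They were thus uneven among classes of 1 library and are not a plain measure of free RNA. Barcodes of 1 to 100 UMIs, used as a gauge of free RNA, held *Ikzf2* at 289 CPM in WT and 694 CPM in A20ZF7, *Capg* at 67.3 and 126 CPM and *Tgfb1* at 58.1 and 115 CPM. For *Il10* they held 22.7 and 60.1 CPM, for *Itgb8* 13.9 and 43.3 CPM and for *Izumo1r* 7.57 and 20.7 CPM. These are levels of free RNA alone. A class level below them neither shows nor excludes the transcript in the cells of that class.

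*Foxp3* itself set the gate, so its level in T barcodes is a description. In WT, 58 Foxp3-positive barcodes had 1 *Foxp3* UMI, 10 had 2 and 2 had 3 or more, and in A20ZF7 the numbers were 596, 76 and 12. The gene is at X:7573644-7595245 on the plus strand (GRCm38), where the annotated gene *Flicr* overlaps it on the same strand, so their reads may be split by the counting. The share of T barcodes with a *Foxp3* UMI was 1.81% (1.42 to 2.29%, exact binomial) in WT and 6.18% (5.74 to 6.65%) in A20ZF7, a ratio of 3.41 (2.67 to 4.35). With every barcode thinned to 500 UMIs the shares were 0.936% and 2.90%, a ratio of 3.10 (2.05 to 4.68). Stromal barcodes, which should lack the gene, had a *Foxp3* UMI in 0.147% (WT, median depth 986.5 UMIs) and 1.42% (A20ZF7, median depth 874 UMIs), and innate lymphoid barcodes in 0.163% and 1.33%. The *Foxp3* level in innate lymphoid barcodes was thus 1.92 CPM from 2 UMIs in WT and 15.5 CPM from 10 UMIs in A20ZF7. The share was above this background in both libraries, and the background itself was higher in A20ZF7. The stromal and innate lymphoid barcodes were required to hold no T cell gene. The free RNA gauge held *Foxp3* at 14.7 CPM in WT and 52.3 CPM in A20ZF7, against 23.6 and 62.4 CPM over all T barcodes. Of barcodes with a *Foxp3* UMI, 70 of 161 (WT) and 684 of 1621 (A20ZF7) were T barcodes. Over the non-lymphoid limit were 54 and 678. The part of this background and of free RNA in the difference of the shares was not tested.

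*Ikzf2*, *Il10*, *Itgb8* and *Izumo1r* were at least 2-fold higher in Foxp3-positive than in other T barcodes of both libraries. These are 4 of the 6 members other than *Foxp3* that had a mean of 50 CPM or more over the 4 class levels. In other T barcodes *Itgb8* (6.03 and 22.4 CPM) and *Izumo1r* (21.8 and 34.9 CPM) were under 50 CPM in both libraries. They passed the limit through their Foxp3-positive levels, so their calls are not independent of it. Of 3297 genes past that limit, 0.334% were 2-fold higher in both libraries, 6.01% were so in WT taken alone and 0.516% in A20ZF7 taken alone. *Capg* was 2-fold higher in WT but not in A20ZF7, and *Tgfb1* in neither. *Lrrc32* and *Gpr83* were under the limit. Over the 6 members past the limit, the median ratio of Foxp3-positive over other T was 5.85 in WT and 2.42 in A20ZF7, against 1.07 and 1.01 over all genes past it. With *Lrrc32* and *Gpr83* the medians over 8 members were 9.31 and 2.67. The WT ratios rest on 70 barcodes, so that counts of 9 to 91 UMIs carry the members past the limit. Without the WT mouse of hashtag 8, and under 6 other settings, *Itgb8* fell below 50 CPM and out of this count. Leaving out a WT mouse kept only barcodes called for the other hashtag. The 812 of 3860 WT T barcodes without a hashtag call were thus left out too.

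*Ikzf2* (1:69531214-69687245, minus strand) encodes the zinc finger transcription factor Helios. In Foxp3-positive barcodes its level was 1155 CPM (930 to 1418, exact Poisson) for WT, and for A20ZF7 it was 986 CPM (924 to 1052), from 91 and 921 UMIs. Other T barcodes held 341 and 440 CPM, and innate lymphoid barcodes 382 and 459 CPM. The ratio of Foxp3-positive over other T was 3.38 (2.70 to 4.19) in WT and 2.24 (2.09 to 2.40) in A20ZF7. *Ikzf2* was thus highest in Foxp3-positive barcodes of both libraries. In A20ZF7 its levels in other T and innate lymphoid barcodes lay below the 694 CPM of the free RNA gauge, so its presence in these classes was not shown there, and with the free RNA level taken off the A20ZF7 ratio had no value because other T barcodes were left at 0. Among other T barcodes it stood highest in those with a *Trdc* UMI, which marks γδ T cells, at 731 and 644 CPM, against 294 and 405 CPM in those with *Cd4* and 228 and 397 CPM in those with *Cd8a* or *Cd8b1*. Stromal barcodes held 81.3 and 209 CPM, below the other T and innate lymphoid levels of the same library. The annotated genes *Gm28112* and *Gm29112* overlap *Ikzf2* on the same strand.

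*Il10* (1:131019845-131024974, plus strand) encodes interleukin-10, a cytokine that dampens immune responses. In Foxp3-positive barcodes its level was 964 CPM (760 to 1207) for WT, and for A20ZF7 it was 232 CPM (202 to 265), from 76 and 217 UMIs. Other T barcodes held 52.5 and 89.2 CPM, and innate lymphoid barcodes 5.76 and 49.6 CPM. The ratio of Foxp3-positive over other T was 18.4 (13.9 to 24.1) in WT and 2.61 (2.24 to 3.02) in A20ZF7. Against other T barcodes with a *Cd4* UMI the ratios were 10.2 and 2.42. An *Il10* UMI was seen in 51.4% (39.2 to 63.6%) of WT and 21.9% (18.9 to 25.2%) of A20ZF7 Foxp3-positive barcodes. The shares were 2.72% and 7.46% of other T barcodes and 0.336% and 2.10% of stromal barcodes. In both libraries *Il10* was higher in Foxp3-positive than in other T barcodes, and the WT level in Foxp3-positive barcodes was the higher one.

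The members of the TGF-β route did not share 1 pattern. *Itgb8* (12:119158022-119238802, minus strand), the β8 integrin chain, had 114 CPM (52.2 to 217) in the WT and 61.0 CPM (46.2 to 79.1) in the A20ZF7 Foxp3-positive barcodes, from 9 and 57 UMIs. Other T barcodes held 6.03 and 22.4 CPM, giving ratios of 19.0 (7.64 to 43.2) and 2.72 (2.01 to 3.64). The WT value comes from 9 barcodes with 1 *Itgb8* UMI each. *Lrrc32* (7:98489283-98502181, plus strand), which encodes the TGF-β anchor GARP, had 2 UMIs in WT and 27 in A20ZF7 Foxp3-positive barcodes, 25.4 and 28.9 CPM, against 2.30 and 9.78 CPM in other T barcodes. The ratios were 11.1 (1.14 to 55.4) and 2.96 (1.87 to 4.53). In other T barcodes *Lrrc32* lay below the 13.9 (WT) and 17.4 CPM (A20ZF7) of the free RNA gauge, so its presence there was not shown. It was higher in stromal barcodes, at 130 and 109 CPM, than in any lymphoid class. *Tgfb1* (7:25687002-25705077, plus strand), which encodes the cytokine TGF-β1, stood at 127 CPM (60.9 to 233) and 136 CPM (113 to 162) in Foxp3-positive barcodes, 87.8 and 129 CPM in other T barcodes and 111 and 136 CPM in innate lymphoid barcodes. Its ratios of Foxp3-positive over other T were 1.45 (0.686 to 2.69) and 1.05 (0.870 to 1.26), both with 1 inside the interval. So the integrin chain was higher in Foxp3-positive barcodes of both libraries, and the cytokine transcript lay between 87.8 and 136 CPM in every class.

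*Izumo1r* and *Gpr83* lie side by side on chromosome 9. *Izumo1r* (9:14885814-14903949, minus strand), which encodes the surface protein folate receptor 4, had 165 CPM (87.8 to 282) in the WT and 107 CPM (87.1 to 130) in the A20ZF7 Foxp3-positive barcodes, from 13 and 100 UMIs. Other T barcodes held 21.8 and 34.9 CPM and innate lymphoid barcodes 3.84 and 7.75 CPM. Its ratios of Foxp3-positive over other T were 7.56 (3.85 to 13.7) and 3.07 (2.44 to 3.82). *Gpr83* (9:14860210-14870789, plus strand), which encodes a G protein-coupled receptor, had 1 UMI in WT and 3 in A20ZF7 Foxp3-positive barcodes, 4 and 11 in other T barcodes and 0 in innate lymphoid barcodes. Its ratios of 11.1 (0.224 to 112) and 3.40 (0.610 to 12.9) were not distinguishable from 1 at this depth. A count of 0 in innate lymphoid barcodes allows up to 2.88 CPM in WT and 4.65 CPM in A20ZF7 (3 UMIs of the class total).

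*Capg* (6:72544391-72562983, plus strand) encodes an actin-capping protein. In Foxp3-positive barcodes its level was 368 CPM (246 to 529) for WT, and for A20ZF7 it was 288 CPM (255 to 325). Other T barcodes held 89.0 and 186 CPM, giving ratios of 4.14 (2.72 to 6.06) and 1.55 (1.36 to 1.76). Innate lymphoid barcodes held 124 and 116 CPM. Within these, barcodes with ILC3, ILC1 or NK cell genes stood at 191 and 143 CPM, and ILC2-like barcodes at 24.6 and 42.9 CPM. Stromal barcodes held 55.8 and 71.6 CPM. The ILC2-like levels lay below these, so presence of *Capg* in ILC2-like barcodes was not shown. The level of all A20ZF7 innate lymphoid barcodes together lay below the 126 CPM of the free RNA gauge. The A20ZF7 level with ILC3, ILC1 or NK cell genes, 143 CPM (108 to 185), lay above this gauge but with the gauge inside its interval. Presence of *Capg* in A20ZF7 innate lymphoid barcodes was thus not shown.

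**Figure D1:**
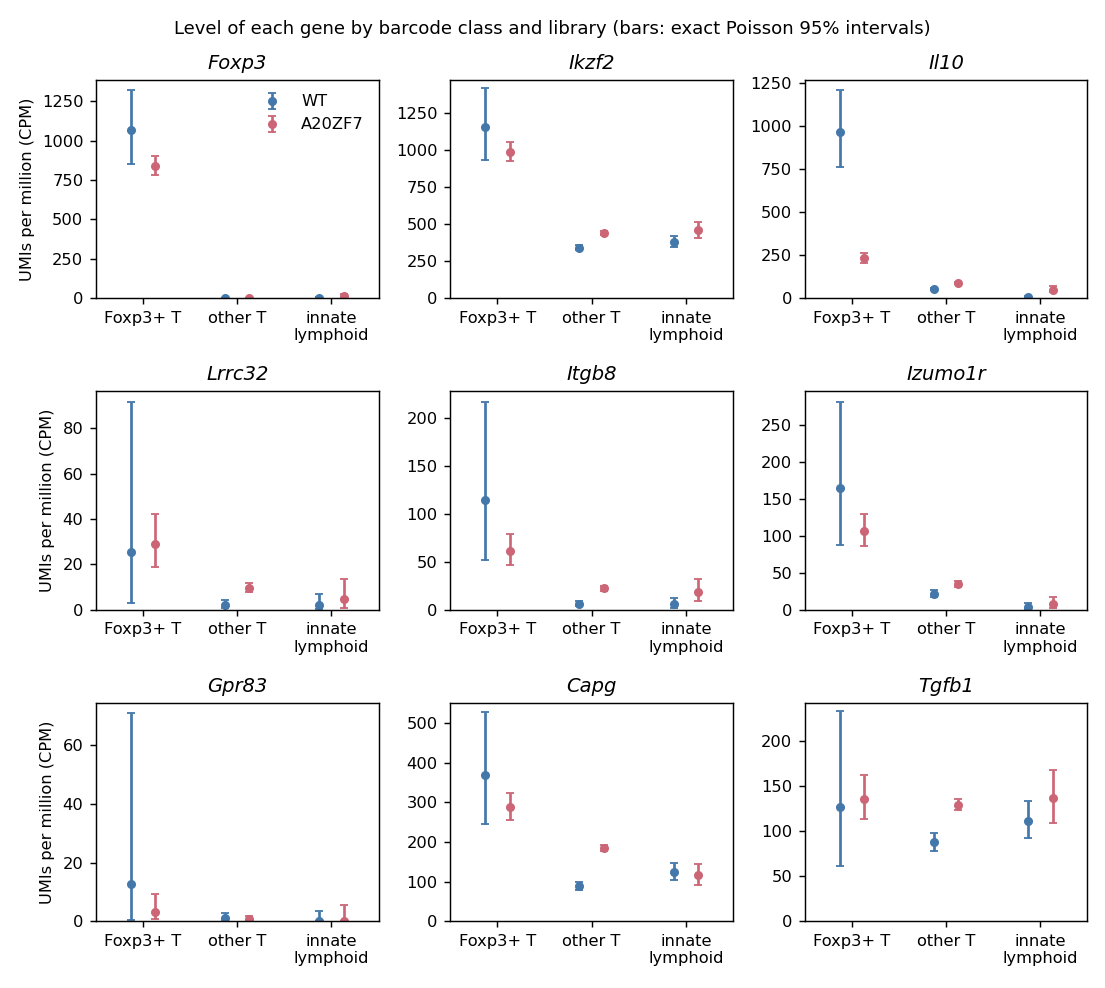
Level of each of the 9 genes in CPM (linear axes from 0, 1 panel a gene) in Foxp3-positive T, other T and innate lymphoid barcodes of the WT (blue) and A20ZF7 (red) libraries, with exact Poisson 95% intervals that cover counting error only. *Il10* has 964 CPM (WT) and 232 CPM (A20ZF7) in Foxp3-positive barcodes, whereas *Tgfb1* lies between 87.8 and 136 CPM in every class.

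**Figure D2:**
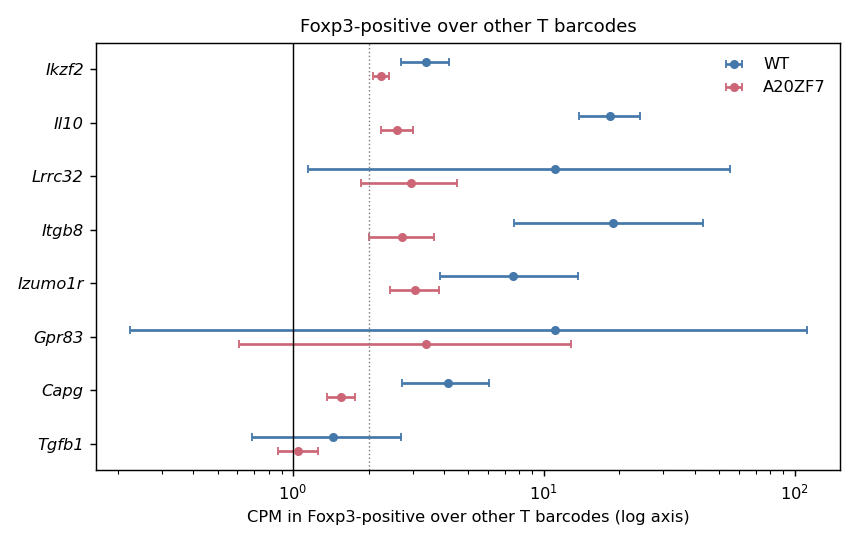
Ratio of CPM in Foxp3-positive over other T barcodes (log axis) for the 8 members other than *Foxp3* in WT (blue) and A20ZF7 (red), with exact conditional 95% intervals. The solid line is a ratio of 1 and the dotted line a ratio of 2, and *Ikzf2*, *Il10*, *Itgb8* and *Izumo1r* lie to the right of the dotted line in both libraries with a mean level past 50 CPM. *Itgb8* and *Izumo1r* pass that mean through their Foxp3-positive levels.

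Because *Itgb8* and *Izumo1r* were both higher in Foxp3-positive barcodes of either library, the bases before their RefSeq starts are shown. RefSeq promoter windows (GRCm38.p6) were at hand for 6 of the 9 members: *Foxp3*, *Itgb8*, *Izumo1r*, *Gpr83*, *Capg* and *Tgfb1*. The 250 bases before each start were searched on both strands for 4 motifs of factors active in T cells: the forkhead motif TGTTTAC, the RUNX motif TGTGGT, the STAT motif TTCNNNGAA and the AP-1 motif TGANTCA. Over 32851 windows of the same length, 3.17% held the forkhead motif, 14.0% the RUNX motif, 7.02% the STAT motif and 6.75% the AP-1 motif. The *Izumo1r* window held 1 RUNX match and the *Itgb8* window none of the 4, and a second *Foxp3* start had 1 STAT match. The windows of *Itgb8* (12:119238277-119238526, minus strand) and *Izumo1r* (9:14903768-14904017, minus strand) follow 5′ to 3′, with the match in capitals. Both RefSeq starts lie inside the GENCODE gene spans given above, so the windows overlap those spans.
Itgb8: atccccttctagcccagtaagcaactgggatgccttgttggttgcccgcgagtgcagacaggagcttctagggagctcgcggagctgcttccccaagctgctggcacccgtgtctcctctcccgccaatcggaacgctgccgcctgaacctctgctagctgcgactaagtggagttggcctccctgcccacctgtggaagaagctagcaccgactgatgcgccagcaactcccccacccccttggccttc
Izumo1r: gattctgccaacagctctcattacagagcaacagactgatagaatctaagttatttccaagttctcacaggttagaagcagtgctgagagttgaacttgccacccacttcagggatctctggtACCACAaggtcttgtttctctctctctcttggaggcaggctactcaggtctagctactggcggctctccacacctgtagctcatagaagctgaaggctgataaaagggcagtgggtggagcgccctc
The letters TGTGGT in the *Izumo1r* window stand on the other strand, where they read ACCACA. A match is a run of letters and not a measured binding site.

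To ask whether the genotypes differed within a class, the level in A20ZF7 was divided by that in WT. In Foxp3-positive barcodes *Il10* was lower in A20ZF7, with a ratio of 0.241 (0.185 to 0.317), and its interval lay wholly below 1. *Itgb8*, at 0.534 (0.263 to 1.23), and *Izumo1r*, at 0.649 (0.363 to 1.26), also lay past 1.5-fold, but with 1 inside their intervals. These were 3 of the 6 members past 50 CPM, all lower in A20ZF7, and of 3367 genes past that limit 19.5% were 1.5-fold lower, 12.7% higher and 32.2% either way. The median ratio of all these genes was 0.932, a log2 shift of -0.10. Without the WT mouse of hashtag 8 *Itgb8* had a ratio of 0.787, and without the 3 barcodes richest in each gene *Itgb8* had 0.703 and *Izumo1r* 0.834, all short of 1.5-fold. *Ikzf2* had a ratio of 0.854 (0.688 to 1.07), *Capg* of 0.783 (0.533 to 1.19) and *Tgfb1* of 1.07 (0.564 to 2.29). These were short of 1.5-fold, but *Tgfb1* had 1.67 without its 3 richest barcodes and 0.652 when barcodes were thinned to 500 UMIs, and *Capg* had 1.60 when thinned. *Lrrc32* and *Gpr83*, under the limit, had ratios of 1.14 (0.286 to 9.88) and 0.253 (0.0203 to 13.3). *Foxp3*, which set the gate, was at 1066 CPM in WT and 841 CPM in A20ZF7.

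The *Il10* difference was looked at from several sides. Of the Foxp3-positive barcodes, 36 of 70 from WT and 150 of 684 from A20ZF7 held an *Il10* UMI, although A20ZF7 barcodes were the deeper ones. After thinning these barcodes to 500 UMIs, 35.7% and 11.1% held one. The 3 barcodes with the most *Il10* UMIs carried 19.7% of the WT and 6.91% of the A20ZF7 UMIs of the gene, and without them the levels were 774 and 216 CPM. Hashtag calls split the WT library, and the mouse of hashtag 7 had 930 CPM (652 to 1288) from 35 barcodes and that of hashtag 8 had 770 CPM (471 to 1190) from 18. A further 17 WT Foxp3-positive barcodes had no hashtag call and are in neither. Both WT mice were thus above the A20ZF7 pool, whose mice were not separated here. The hashtags separated weakly, with medians of 359 and 65 UMIs in T barcodes called for hashtag 7 and of 110 and 306 UMIs in those called for hashtag 8, so this split is approximate. With 2 or more *Foxp3* UMIs required, 12 WT and 88 A20ZF7 barcodes gave 761 and 303 CPM, a ratio of 0.397 (0.194 to 0.894). With the *Foxp3* UMI and also a UMI of 1 of 7 receptors of Tregs and activated T cells (*Il2ra*, *Ctla4*, *Icos*, *Tnfrsf4*, *Tnfrsf9*, *Tnfrsf18* or *Tigit*), 64 and 643 barcodes gave a ratio of 0.246 (0.187 to 0.328). When the 500 UMIs were drawn before the gates, 25 and 211 barcodes remained and the ratio was 0.461 (0.217 to 1.09). The antibody genes and the *Foxp3* background, given above, were both higher in A20ZF7. With the free RNA level, scaled by the antibody genes, taken off both libraries the *Il10* levels were 1045 and 439 CPM, and the ratio moved to 0.421. The part of barcodes that hold *Foxp3* only as free RNA was not tested.

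**Figure D3:**
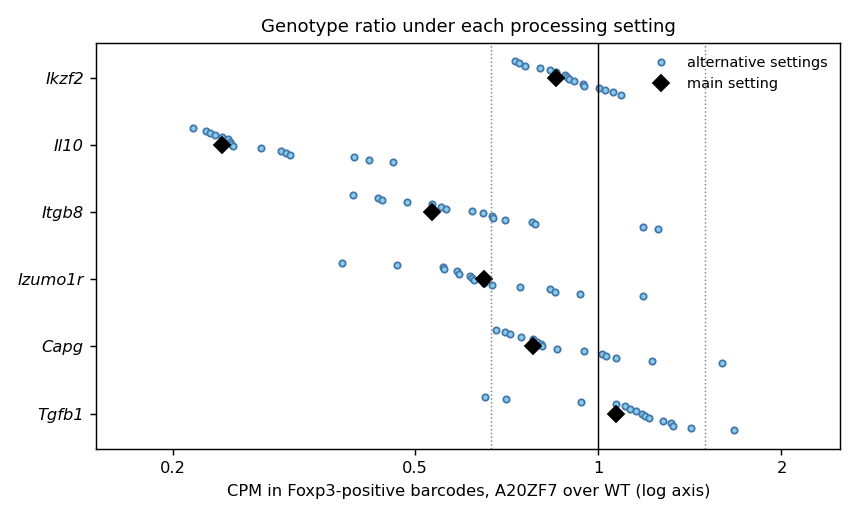
Ratio of CPM, A20ZF7 over WT, in Foxp3-positive barcodes (log axis) for the 6 members past 50 CPM, with the main setting as a black diamond and each alternative setting as a blue point. Dotted lines mark 1.5-fold either way. *Il10* lies between 0.216 and 0.461 under the alternatives, while the points of *Itgb8* and *Izumo1r* fall on both sides of 1.

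In other T barcodes the order was turned for *Il10*, with 52.5 CPM in WT and 89.2 CPM in A20ZF7, a ratio of 1.70 (1.45 to 1.998). The difference between the classes was not tested. *Capg* was also higher in A20ZF7, at 89.0 and 186 CPM, a ratio of 2.09 (1.85 to 2.36). These were 2 of 4 members past 50 CPM, and of 3233 genes 6.16% were 1.5-fold higher, 4.3% lower and 10.5% either way. *Tgfb1* at 1.47 (1.30 to 1.67) and *Ikzf2* at 1.29 (1.21 to 1.37) were under 1.5-fold, but *Tgfb1* passed it without the WT mouse of hashtag 7 (1.53), with 3 T cell UMIs required (1.51), without the limit on non-lymphoid genes (1.54), with the free RNA level taken off (1.54) and when thinned (1.85). *Lrrc32*, *Itgb8* and *Izumo1r*, under the limit on level, had ratios of 4.26 (2.09 to 10.1), 3.72 (2.38 to 6.11) and 1.60 (1.25 to 2.07). The other T levels of *Lrrc32* and *Itgb8* lay below the free RNA gauge in both libraries. The call on *Il10* was lost without the WT mouse of hashtag 7, at a ratio of 1.43, with 3 T cell UMIs required, at 1.47, and with at least 1000 UMIs a barcode, at 1.45. By subset, other T barcodes with *Cd4* held *Il10* at 94.9 CPM (64.4 to 135) in WT and 96.2 CPM (82.8 to 111) in A20ZF7. They were 299 of 3790 other T barcodes in WT and 1486 of 10382 in A20ZF7. The part of this mix in the *Il10* ratio was not tested. Those with *Cd8a* or *Cd8b1* held 14.7 CPM (5.93 to 30.4) from 7 UMIs and 50.4 CPM (39.2 to 63.8) from 69 UMIs. Those with *Trdc* held 20.2 CPM (5.5 to 51.7) from 4 UMIs and 62.7 CPM (37.8 to 97.9) from 19 UMIs. The levels with *Cd8a* or *Cd8b1* lay below the free RNA gauge of 22.7 CPM (WT) and 60.1 CPM (A20ZF7), so presence of *Il10* there was not shown. The WT level with *Trdc* also lay below this gauge, and the A20ZF7 level with *Trdc* lay close to it. A difference between these subsets was not tested. Stromal barcodes, which should lack *Il10*, held 3.85 CPM in WT and 26.6 CPM in A20ZF7.

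In innate lymphoid barcodes 0 of 3 members past 50 CPM lay past 1.5-fold, and of 3368 genes 8.82% were higher, 6.44% lower and 15.3% either way. *Ikzf2* had a ratio of 1.2 (1.03 to 1.40), *Capg* of 0.939 (0.697 to 1.26) and *Tgfb1* of 1.22 (0.918 to 1.63). The other members were rare there. *Il10* had 6 UMIs in WT and 32 in A20ZF7, a ratio of 8.61 (3.55 to 25.2). *Foxp3* had 2 and 10 UMIs, a ratio of 8.07 (1.72 to 75.8), and *Itgb8* had 6 and 12 UMIs, a ratio of 3.23 (1.12 to 10.5). *Izumo1r* had 4 and 5 UMIs, a ratio of 2.02 (0.434 to 10.2). The innate lymphoid levels of *Il10*, *Foxp3*, *Itgb8* and *Izumo1r* lay below the free RNA gauge in both libraries, so their presence there was not shown. For *Il10* these levels were 5.76 CPM (WT) and 49.6 CPM (A20ZF7), against a gauge of 22.7 and 60.1 CPM. Innate lymphoid barcodes held the antibody genes at 5834 CPM (WT) and 13471 CPM (A20ZF7), and their part in these values was not tested.

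**Figure D4:**
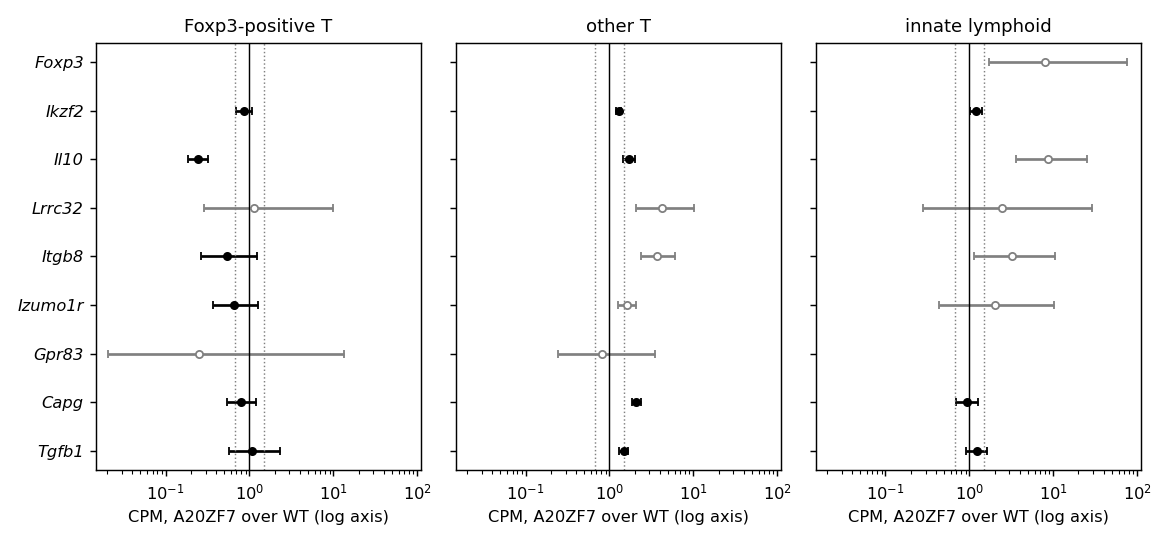
Ratio of CPM, A20ZF7 over WT (log axes), of each member in Foxp3-positive T, other T and innate lymphoid barcodes, with exact conditional 95% intervals that cover counting error only. Filled points have a mean of 50 CPM or more, open points less, and dotted lines mark 1.5-fold either way. *Il10* lies at 0.241 in Foxp3-positive and at 1.70 in other T barcodes.

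The classes also differ in size, and most UMIs of the members other than *Foxp3* lay outside Foxp3-positive barcodes. Other T barcodes include Tregs whose *Foxp3* mRNA was not captured, and UMIs of free RNA are counted too. Other T levels of *Itgb8* and *Lrrc32* in both libraries, and of *Ikzf2* in A20ZF7, lay below the free RNA gauge. The percentages thus do not show which cells made the transcripts. Foxp3-positive barcodes made up 1.38% of the barcodes and 1.71% of the UMIs of the 3 classes in WT, and 5.79% and 7.06% in A20ZF7. They held 28.7% (23.3 to 34.5%) of the *Il10* UMIs in WT and 16.8% (14.8 to 19.0%) in A20ZF7, against 69.1% and 80.7% in other T barcodes. For *Itgb8* they held 25% and 17.3%, for *Izumo1r* 14.0% and 19.5%, and for *Ikzf2* 5.42% and 14.5%. For *Capg* and *Tgfb1* they held 6.20% and 2.31% in WT and 10.7% and 7.38% in A20ZF7. Innate lymphoid barcodes held 23.7% of the *Ikzf2*, 27.6% of the *Capg* and 26.9% of the *Tgfb1* UMIs in WT, where they were 24.2% of the barcodes, and 4.66%, 2.99% and 5.11% in A20ZF7, where they were 6.38%.

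**Figure D5:**
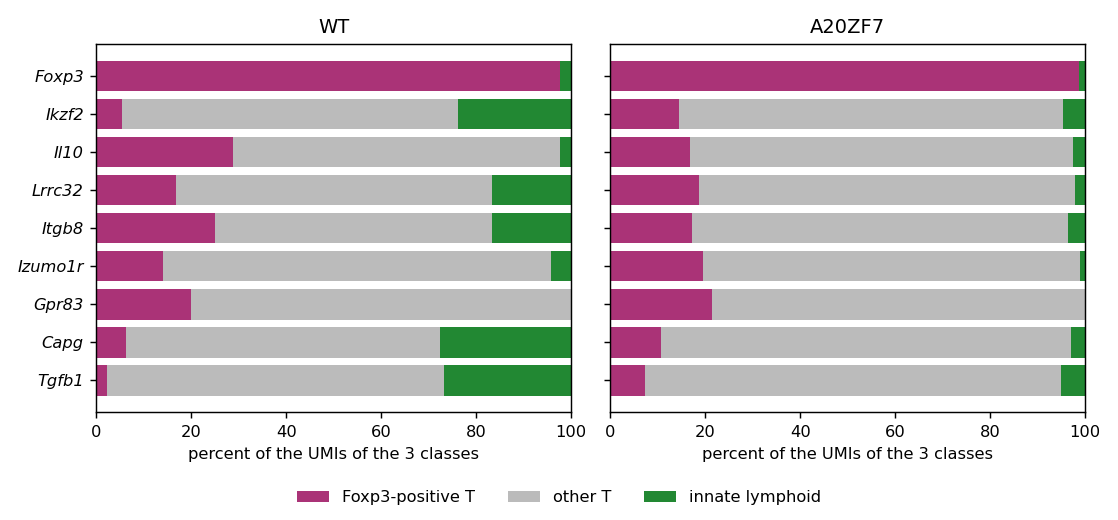
Percent of the UMIs of each member that lay in Foxp3-positive T (purple), other T (grey) and innate lymphoid (green) barcodes, out of the UMIs in these 3 classes, in WT (left) and A20ZF7 (right). Other T barcodes hold 69.1% of *Il10* UMIs in WT and 80.7% in A20ZF7. They include Tregs whose *Foxp3* mRNA was not captured, and UMIs of free RNA are counted in every class. *Foxp3* lies in Foxp3-positive barcodes by the gate.

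Members were compared within Foxp3-positive barcodes as a description. *Izumo1r* was seen in 28.6% (14.6 to 46.3%) of 35 WT barcodes with an *Ikzf2* UMI and 5.71% (0.700 to 19.2%) of 35 without, intervals that overlap. In A20ZF7 it was seen in 15.7% (12.4 to 19.6%) of 413 and 7.38% (4.57 to 11.2%) of 271 barcodes, against 0.231% (WT) and 0.718% (A20ZF7) of stromal barcodes. Barcodes with an *Ikzf2* UMI were deeper, with medians of 1207 and 824 UMIs in WT and 1235 and 1057 UMIs in A20ZF7. *Il10* was seen in 45.7% of WT barcodes with and 57.1% without an *Ikzf2* UMI, and in 22.5% and 21.0% in A20ZF7, with overlapping intervals.

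Other genes of Treg biology were read from lists of 37 genes, 25 of them past 50 CPM. Of these, 4 were 2-fold higher in Foxp3-positive than in other T barcodes of both libraries and 0 were 2-fold lower in both, beside 0.334% of all genes higher in both. *Tnfrsf4* (OX40), a costimulatory receptor, had ratios of 7.67 in WT and 2.55 in A20ZF7, and *Tnfrsf9* (4-1BB), a related receptor, of 6.62 and 2.51. *Il1rl1*, the IL-33 receptor found on tissue Tregs, had ratios of 17.4 and 2.28. Its other T levels were 9.47 and 20.7 CPM, so it passed the limit through its Foxp3-positive levels. *Areg*, the growth factor amphiregulin, had ratios of 3.97 and 2.06. By group, 2 of 8 IL-2 and costimulatory receptors, 2 of 3 tissue Treg genes, 0 of 5 transcription factors, 0 of 4 suppressor genes and 0 of 5 genes of the TGF-β and IL-10 route were past 2-fold in both. *Itgav*, the αv chain that pairs with β8, had ratios of 3.17 (2.17 to 4.50) and 1.63 (1.46 to 1.82), and *Ctla4* of 3.58 (2.95 to 4.32) and 1.12 (1.04 to 1.19). The IL-10 receptor gene *Il10ra* had 4 and 20 UMIs in Foxp3-positive barcodes and was under the limit.

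Among the companion genes in Foxp3-positive barcodes, *Areg* was higher in A20ZF7, at 470 CPM in WT and 1135 CPM in A20ZF7, a ratio of 2.42 (1.74 to 3.45), and was also higher in other T barcodes, at 118 and 551 CPM. *Il1rl1* at 0.286 (0.151 to 0.578) and *Klrg1*, an inhibitory receptor of differentiated T cells, at 0.20 (0.109 to 0.385) were lower in A20ZF7, as *Il10* was. Also lower were *Nt5e* at 0.454 (0.310 to 0.684), *Ccr8* at 0.217 (0.0865 to 0.615), *Prdm1* at 0.50 (0.282 to 0.955), *Maf* at 0.663 (0.535 to 0.829) and *Ctla4* at 0.692 (0.572 to 0.843). *Furin*, the protease that cuts the TGF-β precursor, had a ratio of 2.16 (1.32 to 3.82). These are the companion genes whose intervals did not hold 1. Of 3367 genes past 50 CPM in Foxp3-positive barcodes, 19.5% were 1.5-fold lower in A20ZF7 and 12.7% higher. These shares count a fold and not an interval, and *Ctla4* was short of 1.5-fold. The share of all genes whose intervals did not hold 1 was not computed, so the list has no like background.

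The genes most like the members were ranked by the geometric mean over both libraries of the ratio Foxp3-positive over other T, with 20 CPM added to each level. Among 3297 genes *Il10* ranked 1, *Izumo1r* 6, *Itgb8* 7, *Ikzf2* 13, *Capg* 23 and *Tgfb1* 660. *Izumo1r* and *Itgb8* passed the limit of 50 CPM through their Foxp3-positive levels, so their ranks are not independent of it. The 10 highest other genes that met the naming rule were *Tnfrsf4*, *Tnfrsf9*, *Il1rl1*, *Penk*, *Areg*, *Nckap5*, *Dst*, *Mmd*, *Sh3rf1* and *Ifi27l2a*, from 3.81 down to 2.38. Of these, *Il1rl1*, *Nckap5* (22.1 and 49.8 CPM) and *Sh3rf1* (19.5 and 33.2 CPM) were also under 50 CPM in other T barcodes of both libraries. In WT Foxp3-positive barcodes *Sh3rf1* had 10 UMIs, *Il1rl1* 13, *Dst* 14 and *Nckap5* 15. *Penk*, which encodes proenkephalin, had 9 UMIs (114 CPM) among WT and 173 UMIs (185 CPM) among A20ZF7 Foxp3-positive barcodes.

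Surface proteins were read in WT, where 138 antibodies and 4 hashtags were sequenced with the cells, none of the antibodies against the product of a member. Antibody counts are given per 10000 antibody UMIs of a class, in 70 Foxp3-positive barcodes and 299 other T barcodes with a *Cd4* UMI. CD73, an enzyme that makes adenosine, stood at 101 against 70.3, a ratio of 1.43 (1.35 to 1.52), with 1.46 and 1.5 in the 2 hashtagged mice. KLRG1 stood at 40.2 against 29.0, a ratio of 1.38 (1.26 to 1.52), with 1.55 and 1.22 in the mice. In the mouse of hashtag 8 the isotype controls ran from 0.820 to 1.33, so KLRG1 was not above them there. Their genes, *Nt5e* and *Klrg1*, had WT mRNA ratios of Foxp3-positive over all other T of 3.83 and 5.75. CD25, the IL-2 receptor α chain, had a ratio of 1.06 (0.779 to 1.42), CD357 (GITR) of 1.06, Neuropilin1 of 1.02 and TIGIT of 1.02, beside isotype controls at 0.959 to 1.12 over all WT barcodes. CD39, another enzyme that acts on extracellular nucleotides, had 0.845, but 0.723 and 1.09 in the mice. Of these, CD25 stood at 3.92 in Foxp3-positive and 3.85 in stromal barcodes, and TIGIT at 347 and 355, so neither was above the level of cells that should lack it. Neuropilin1 stood at 170.5 and 171.1 and CD39 at 172 and 292, so these were not above the stromal level either. CD4 stood at 28.2 and 8.45 and CD73 at 101 and 48.9.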

How the data were processed

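WT and A20ZF7 gene expression libraries and the WT antibody library were analysed. The authors made the deposited count matrices (UMI counts per gene and barcode) with the 10x 5′ v1.1 kit and Cell Ranger (7.1 per the submitters' processing notes, 8.0.0 and 7.1.0 per the file headers) on mm10, and filtered cells in R 4.3.3 with Seurat 4.3. The gene lists differ (33696 WT and 32285 A20ZF7 IDs), so 31950 shared IDs were used. Of these, 1905 carry another symbol in the other library, so both libraries were not counted against the same annotation. Stromal barcodes hold 3 or more UMIs over *Col1a1*, *Col1a2*, *Col3a1* and *Dcn* and no T cell gene. The antibody files given for A20ZF7 hold the same values as those for WT and were not used.

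Barcodes with 500 or more UMIs, 200 to 2500 genes and at most 15% mitochondrial counts were kept, and 2830 of 28874 WT barcodes called for both hashtags (HTODemux, quantile 0.99, Seurat 5.3.0 in R 4.3.3) were removed. No doublet caller was run on A20ZF7. Counts were summed per class (Python 3.11.15, numpy 2.4.6, scipy 1.17.1, pandas 2.3.3). CPM has exact Poisson, shares exact binomial and ratios exact conditional intervals, and share ratios log-method intervals. UMIs in barcodes of 1 to 100 UMIs gave the free RNA level. Scripts were tested on simulated data. Promoter windows are RefSeq's, and positions are GENCODE M21's. The named genes are the 9 members, companion genes past 2-fold in both libraries, and the 10 other genes most like the members, other than Gm, Rik, sex-linked, ribosomal, mitochondrial and antibody genes and segments of the T cell receptor. *Itgav*, *Ctla4*, *Il2ra*, *Il2rb*, *Tnfrsf18*, *Klrg1*, *Nt5e*, *Prdm1*, *Maf*, *Ccr8*, *Furin* and *Il10ra*, and the receptors in the added Foxp3 gate, were named after their values were seen. Members and lists were chosen with earlier results of these data known. No column of another series was present. A result on 1 further gene is not reported here.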

Additional observations from a re-analysis of the deposited data

Results flagged for a closer look

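For 3 members the ratio of A20ZF7 over WT lay past 1.5-fold in opposite directions in Foxp3-positive and other T barcodes. *Il10* had 0.241 in Foxp3-positive and 1.70 in other T barcodes, *Itgb8* 0.534 and 3.72, and *Izumo1r* 0.649 and 1.60. The difference between the classes was not tested, since each genotype is 1 library. The intervals of *Il10* lay on opposite sides of 1 (0.185 to 0.317 and 1.45 to 1.998), whereas those of *Itgb8* and *Izumo1r* in Foxp3-positive barcodes held 1. *Itgb8* and *Izumo1r* in other T barcodes were under the limit of 50 CPM, and *Itgb8* there also lay below the free RNA gauge in both libraries.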

How the results depend on the processing

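The share ratio of Foxp3-positive barcodes moved from 3.41 to 2.56 with 2 *Foxp3* UMIs required, and leaving out either WT mouse gave 3.23 to 4.19. Leaving out a mouse, here and below, also left out the WT barcodes without a hashtag call. The count of members 2-fold higher in Foxp3-positive barcodes moved from 4 to 2 with the free RNA level taken off, and was 3 to 4 without either WT mouse. With the free RNA level taken off, *Ikzf2* and *Itgb8* were not counted because they had no A20ZF7 ratio, other T barcodes being left at 0. The count by genotype in Foxp3-positive barcodes moved from 3 to 1 both without the limit on non-lymphoid genes and with the free RNA level taken off, *Il10* being the one left, and was 2 to 3 without either WT mouse. In other T barcodes it moved from 2 to 1 with 1000 UMIs required and to 4 with the free RNA level taken off, and was 2 without either WT mouse (*Tgfb1* in place of *Il10* without that of hashtag 7), and in innate lymphoid barcodes from 0 to 3 with the free RNA level taken off and 0 without either mouse. The CD73 antibody ratio was 1.46 to 1.5 without either mouse. The free RNA setting took 54.6% of A20ZF7 Foxp3-positive UMIs against 7.84% in WT. It took 67.4% against 33.9% of other T UMIs and 92.7% against 33.4% of innate lymphoid UMIs. It left *Ikzf2* at 0 in A20ZF7 other T barcodes, because barcodes of 1 to 100 UMIs held *Ikzf2* at 694 CPM, above the 440 CPM of that class. *Itgb8* was left at 0 there as well. The 3 innate lymphoid calls include *Ikzf2* and *Capg*. Their A20ZF7 levels there, 459 and 116 CPM, lay below the gauge of 694 and 126 CPM. For *Ikzf2* the setting took off more than these barcodes held, so the share of 92.7% is too high for them. Some settings left a class untouched, so its ratios could not move. Requiring 3 T cell UMIs, for example, left the innate lymphoid ratios as they were. Wide intervals, such as 0.0203 to 13.3 for *Gpr83* by genotype in Foxp3-positive barcodes, could hardly be left. The number of ratios that stayed is thus not a measure of stability. Of 565 single-gene ratios under alternatives, 516 stayed within the main interval and 44 moved out of it. A further 5 that lay past the fold changed direction, and 58 had no value because a class had 0. The 5 were *Itgb8* by genotype in Foxp3-positive barcodes (1.26 with 2 *Foxp3* UMIs, 1.18 thinned), *Izumo1r* there (1.18 with free RNA taken off), and *Lrrc32* in innate lymphoid barcodes (0.784 with 1000 UMIs and 0.912 without the WT mouse of hashtag 7, whereas without that of hashtag 8 it kept its direction at 1.998). The cause was not tested. The receptor gate, the *Cd4* comparator and leaving out the 3 barcodes with most UMIs were chosen after seeing the data. No paired analysis was possible because each genotype is 1 pool of mice. Depth limits *Gpr83*, *Lrrc32* and WT *Itgb8*, each with fewer than 10 UMIs in WT Foxp3-positive barcodes.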
